A study of Mus musculus with 8 samples.

Results

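The genes described here act in G2 and mitosis, the last phases of the cell cycle, in which a cell that has copied its DNA separates the chromosomes and divides. The 35 genes were chosen by name, as mitotic kinases, cyclins, kinetochore and spindle genes. Earlier results of these data were known when they and the lists set beside them were chosen. Every one of the 35 was found under its own symbol among the 41730 entries of the count table. RNA came from OT-I CD8+ T cells, mouse cytotoxic T cells whose transgenic antigen receptor recognises the ovalbumin peptide SIINFEKL. They had been cultured with peptide-loaded dendritic cells grown from bone marrow and then sorted by flow cytometry. In the control group the culture contained the solvent DMSO (4 libraries, replicates 1 to 4), and in the other group it contained RGX-104 at 2 µM (4 libraries, replicates 5 to 8). RGX-104 is a drug-like activator of the liver X receptors, nuclear receptors for oxidised cholesterol. The T cells of both groups carried the OT-I receptor and both met peptide-loaded dendritic cells, so no group of unstimulated T cells enters the comparison. The labels give neither the age of the mice nor the length of the culture, and leave unsaid whether each library is a culture or an animal of its own. The p-values therefore measure only the spread among these libraries, and that spread may be technical.

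A T cell that meets its antigen divides rapidly. Entry into mitosis is driven by the kinase Cdk1 bound to cyclin A or B. Aurora and Polo kinases then build the spindle, kinetochores attach chromosomes to it, and the spindle checkpoint holds back the anaphase-promoting complex until all are attached. Transcripts of these genes build up late in the cell cycle and are low in resting cells. In RNA from many cells, fewer cells in G2 and mitosis and less RNA of these genes per cell cannot be told apart.

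The promoters of such genes often hold a CHR (cell cycle genes homology region, TTTGAA or TTTAAA), bound by the MuvB core with B-Myb and FoxM1 or in the repressive DREAM complex, and CCAAT boxes, bound by NF-Y. These letters were looked for on both strands in RefSeq promoters of build GRCm38.p6, from 250 bases before to 50 after an annotated start. TTCAAA is TTTGAA read on the other strand, ATTGG is CCAAT on the other strand, TTTAAA reads the same on both, and the elements can share letters at their ends. The table held 30 promoters of 29 of the 35 genes. A CHR match was present in 25 of the 30 (83.3%), against 27.6% of all 32851 promoters in the table and 19.9% of those of genes tested here. A CCAAT match was present in 23 of the 30 (76.7%), against 37.4% of all promoters, and both elements stood in 21 (70.0%), against 10.7%. In only the 100 bases before the start, a CHR match was in 10 of the 30 (33.3%), against 9.71% of all promoters, and a CCAAT match in 21 (70.0%), against 18.9%. The matches are descriptions of letters and show no binding.

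The upstream sequences below are those of the 3 genes that passed the test for a lower level in RGX-104 (Nusap1, Hmgb2, Cenpe) and of 2 widely used proliferation markers (Mki67, Top2a). Each ends just before the first annotated base of the gene. Capitals mark CHR and CCAAT matches on either strand.
Nusap1 (chr2:119618048-119618297, + strand): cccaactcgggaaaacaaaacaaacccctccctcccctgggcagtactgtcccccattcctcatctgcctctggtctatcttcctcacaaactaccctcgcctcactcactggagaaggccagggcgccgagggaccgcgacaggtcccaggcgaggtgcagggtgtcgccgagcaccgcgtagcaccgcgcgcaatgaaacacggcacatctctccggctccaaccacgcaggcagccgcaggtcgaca
Hmgb2 (chr8:57511593-57511842, + strand): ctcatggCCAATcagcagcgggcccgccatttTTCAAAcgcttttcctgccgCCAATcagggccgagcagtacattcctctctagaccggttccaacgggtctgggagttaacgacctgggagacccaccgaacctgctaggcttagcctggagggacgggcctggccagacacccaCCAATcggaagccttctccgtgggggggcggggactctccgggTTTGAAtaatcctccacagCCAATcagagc
Cenpe (chr3:135212313-135212562, + strand): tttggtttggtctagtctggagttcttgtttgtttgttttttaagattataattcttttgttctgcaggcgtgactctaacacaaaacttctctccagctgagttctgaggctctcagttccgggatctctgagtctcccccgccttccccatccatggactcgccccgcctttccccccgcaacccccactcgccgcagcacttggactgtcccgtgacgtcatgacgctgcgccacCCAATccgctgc
Mki67 (chr7:135716451-135716629, - strand): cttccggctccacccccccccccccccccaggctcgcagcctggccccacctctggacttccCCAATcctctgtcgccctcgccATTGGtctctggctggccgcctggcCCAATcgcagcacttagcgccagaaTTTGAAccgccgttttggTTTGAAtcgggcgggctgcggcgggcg
Top2a (chr11:99024200-99024439, - strand): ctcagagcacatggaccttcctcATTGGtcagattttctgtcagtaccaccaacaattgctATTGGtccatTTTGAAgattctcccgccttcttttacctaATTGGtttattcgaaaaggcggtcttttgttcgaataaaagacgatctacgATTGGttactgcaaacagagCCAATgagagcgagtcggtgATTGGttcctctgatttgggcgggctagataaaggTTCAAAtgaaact
Top2a held 2 CHR and 6 CCAAT matches in this stretch, Hmgb2 held 2 and 4, and Mki67 held 2 and 3. Cenpe held 0 CHR and 1 CCAAT match before its start, with TTTAAA at position 15 after it. Nusap1, which had the largest fold change of the 35 genes, held neither.

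Libraries had 13144704 to 15966972 counts, the fewest in RGX-104 replicate 8. RGX-104 replicates 7 and 8 stood apart from the other libraries in the genes described here, so calls are also given without each library. Levels are given as CPM, counts per 1000000 after TMM scaling of library sizes, and fold changes as log2 of RGX-104 over control ± SE. CD8 T cell markers made up 0.162 to 0.168% of counts in control and 0.196 to 0.204% in RGX-104. Of the 8 tested, 4 were higher at an adjusted p under 0.05 (edgeR), beside 0.888% of all genes. These were Cd8a (log2 fold change 0.52), Cd8b1 (0.39), Lat (0.39) and Thy1 (0.19). Cd3g (0.40), Cd3e (0.15), Cd3d (0.08) and Lck (0.03) did not pass. Of 15 dendritic cell markers, 9 passed the filter on low counts and H2-Aa, H2-Ab1 and H2-Eb1 were listed at 0 in all libraries. Their summed share was 0.0590 to 0.0655% in control and 0.0571 to 0.0675% in RGX-104. Without Ccr7 and Batf3, which T cells also express, it was 0.00827 to 0.00984% and 0.00769 to 0.00946%, most of it Cst3. No dendritic cell marker passed the edgeR test, and 3 of the 9 (33.3%, beside 7.52% of all genes) were lower at an unadjusted p under 0.05. These were Batf3 (72.0 CPM in control and 58.6 in RGX-104), Ccl22 (3.66 and 1.61) and Fscn1 (4.23 and 2.37), and their part in the values of the genes described here was not tested. Macrophage and monocyte markers (7 of 10 passed the filter on low counts) made up 0.00519 to 0.00606% in control and 0.00574 to 0.00646% in RGX-104. The filter also kept 3 of 4 erythroid, 2 of 5 neutrophil and 1 of 4 B cell markers. The erythroid genes Hbb-bs (66.9 CPM in control and 64.9 in RGX-104) and Hba-a1 (24.0 and 21.4) were the highest of these. No marker of these lists passed the edgeR test.

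All 35 genes passed the filter on low counts, with 85.4 to 14703 counts per library on average, so none was lost before the test. Nusap1, Hmgb2 and Cenpe were lower in RGX-104 and none of the 35 was higher at an adjusted p under 0.05 (edgeR quasi-likelihood test, Benjamini-Hochberg over 12162 genes). These 3 are 8.57% of the 35, beside 1.78% of all genes tested that were lower and 0.888% that were higher. At an unadjusted p under 0.05, 11 of the 35 (31.4%) were lower and 0 higher, beside 7.52% of all genes that were lower. The 11 were Nusap1, Hmgb2, Cenpe, Ndc80, Hmmr, Cenpf, Mki67, Tpx2, Incenp, Cdk1 and Cks2. Of the 35 log2 fold changes 31 were negative (88.6%, beside 49.4% over all genes), their median was -0.13 beside 0.0028, and they ran from -0.53 for Nusap1 to 0.15 for Aurkb. DESeq2 called 4 of the 35 lower (Cenpe, Hmmr, Ndc80 and Nusap1) and limma-voom 3 (Cenpe, Hmgb2 and Nusap1), and neither called any higher. Of all 12162 genes, DESeq2 called 292 lower and limma-voom 210.

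**Figure D1:**
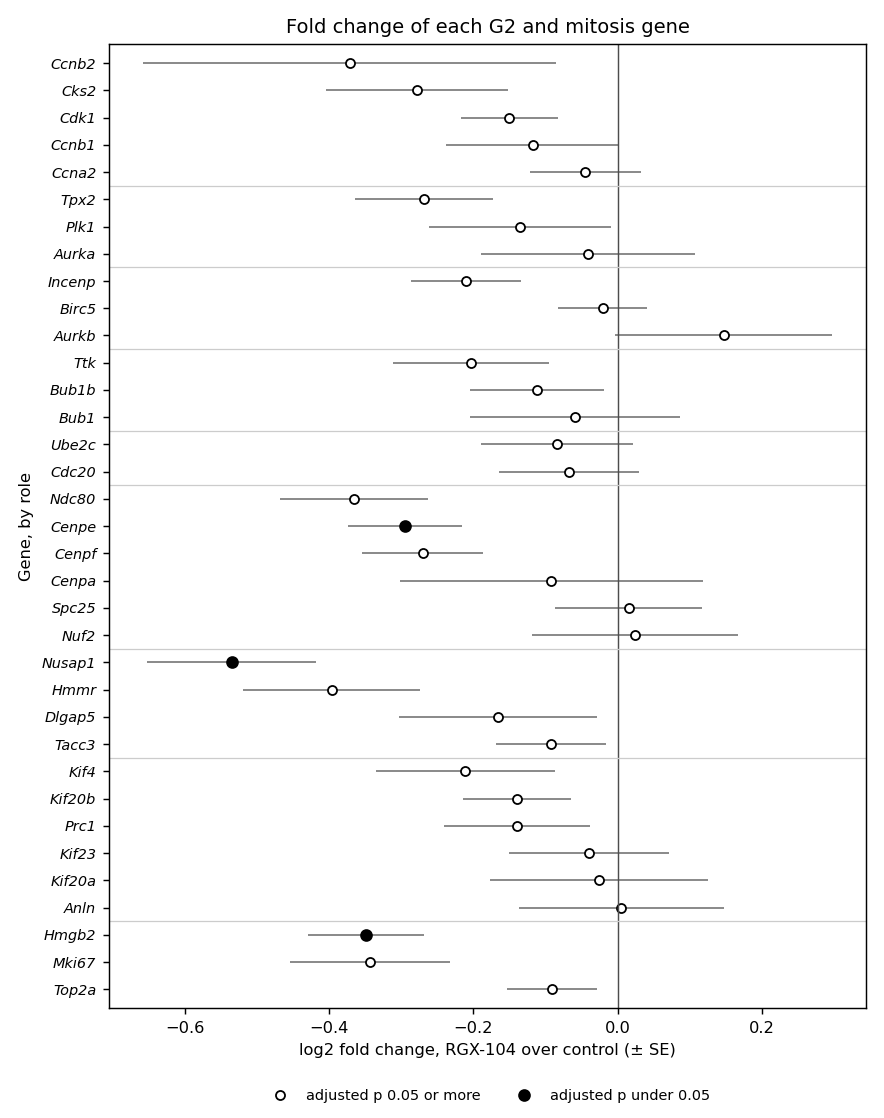
Log2 fold change of RGX-104 over control (x axis, ± SE, n = 4 libraries per group) for the 35 genes (y axis), separated by role, with filled circles for an adjusted p under 0.05 (edgeR). Points lie left of 0 for 31 of the 35 genes, and Nusap1 lies farthest left at -0.53.

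The calls changed when a library was left out. Without control replicate 2, RGX-104 replicate 7 or RGX-104 replicate 8, edgeR called 0 of the 35 genes. In these fits it called 155, 152 and 147 of all genes lower, beside 216 with all libraries. Nusap1 then had log2 fold changes of -0.44, -0.47 and -0.47, with edgeR adjusted p of 0.0664, 0.0581 and 0.065. Without control replicate 3 edgeR called 1 of the 35 (Nusap1), beside 144 of all genes lower. Without RGX-104 replicate 6 it called 2, beside 160. Without RGX-104 replicate 5 it called 7, beside 211, adding Hmmr, Incenp, Mki67 and Ndc80. Without control replicate 1 the count of 3, beside 174 of all genes, held Ndc80 in place of Cenpe. Of the 8 fits that leave out a library, Cenpe missed the threshold in 6, Hmgb2 in 4 and Nusap1 in 3.

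Among spindle microtubule genes, Nusap1 (chromosome 2, 119618298 to 119650165), a protein that bundles spindle microtubules near chromosomes, fell in RGX-104. It was at 51.5, 69.6, 60.7 and 53.9 CPM in control replicates 1 to 4 and at 49.7, 42.3, 35.6 and 35.05 CPM in RGX-104 replicates 5 to 8. The groups did not overlap, and replicate 5 lay just below the lowest control. The log2 fold change was -0.53 ± 0.12 (edgeR adjusted p = 0.0119), from 58.9 ± 8.10 to 40.7 ± 6.87 CPM (mean ± SD, n = 4). Exons of Nusap1 overlap those of Oip5, on the opposite strand, over 172 bp in GENCODE M21, and whether counting used strand is not given in the sources used here.

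Hmmr, which encodes a hyaluronan receptor that also binds spindle microtubules, was at 37.3 to 46.2 CPM in control and at 39.8, 30.4, 27.9 and 27.6 CPM in RGX-104 replicates 5 to 8. Only replicate 5 lay in the control range, and the log2 fold change was -0.40 ± 0.12 (edgeR adjusted p = 0.102). Dlgap5, a spindle assembly protein, had a log2 fold change of -0.17 and Tacc3, which stabilises the fibres that hold kinetochores, -0.09. Neither passed the test.

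Of the 3 chromosome structure genes Hmgb2 passed the test for a lower level. All 3 had a negative log2 fold change, beside 49.4% of all genes. Hmgb2 (chromosome 8, 57511843 to 57515999), a DNA-bending chromatin protein, was at 308.6, 399.2, 374.6 and 346.5 CPM in control replicates 1 to 4. It was at 309.8, 315.1, 245.5 and 251.4 CPM in RGX-104 replicates 5 to 8. Replicates 7 and 8 lay below all controls, while 5 and 6 lay just above the lowest control. The log2 fold change was -0.35 ± 0.08 (edgeR adjusted p = 0.0171). Its adjusted p in edgeR was 0.0816 to 0.0962 without control replicate 2 or 3 or RGX-104 replicate 7 or 8, each left out alone. DESeq2 with all libraries gave an adjusted p of 0.0816.

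Mki67 (chromosome 7, 135689784 to 135716450) encodes Ki-67, a coat of mitotic chromosomes and a common marker of cycling cells. In control it was at 222.9, 230.7, 245.9 and 222.5 CPM, and in RGX-104 replicates 5 to 8 at 242.8, 192.8, 155.3 and 135.8 CPM. Control libraries lay close together (SD 10.9 CPM) and RGX-104 libraries far apart (SD 47.2 CPM), with replicate 5 inside the control range and the others below it. The log2 fold change was -0.34 ± 0.11 and did not pass (edgeR adjusted p = 0.124), and without RGX-104 replicate 5 it was -0.51 with an adjusted p of 0.00174.

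Top2a, the topoisomerase that disentangles sister chromatids (chromosome 11, 98992947 to 99024199), was at 1060, 1024, 998.1 and 1020 CPM in control. In RGX-104 replicates 5 to 8 it was at 1097, 1023, 907.6 and 823.4 CPM. Replicate 5 was the highest of all 8 libraries and replicates 7 and 8 the lowest, and the log2 fold change of -0.09 ± 0.06 did not pass (edgeR adjusted p = 0.559). Exons of Top2a overlap the small gene Gm23451 on the same strand over 122 bp.

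**Figure D2:**
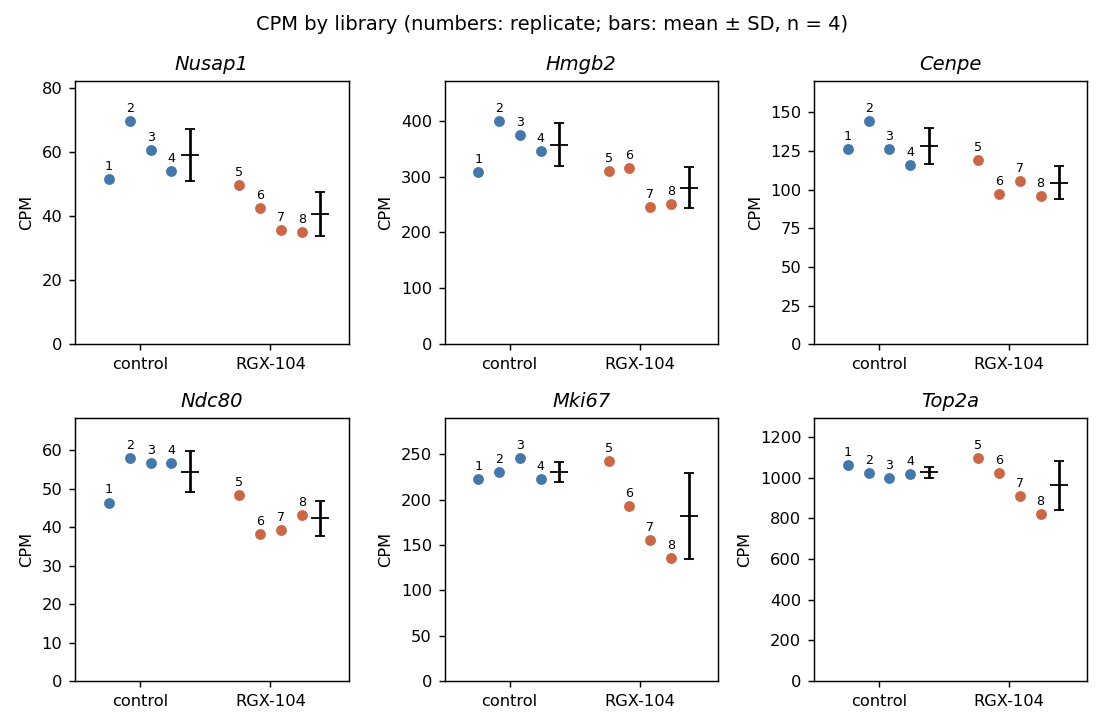
CPM (y axis, from 0) of 6 genes in each library, by group (x axis), with the replicate number above each point and the mean ± SD (n = 4) beside each group. Nusap1 groups do not overlap, and Mki67 in RGX-104 spreads from 135.8 to 242.8 CPM while its controls stay between 222.5 and 245.9 CPM.

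Of 6 centromere and kinetochore genes Cenpe passed the test for a lower level. The log2 fold change was negative for 4 (66.7%, beside 49.4% over all genes) and positive for 2. Cenpe (chromosome 3, 135212563 to 135273540), a motor that moves chromosomes to the spindle equator, was at 126.4, 144.4, 126.1 and 116.1 CPM in control replicates 1 to 4. In RGX-104 replicates 5 to 8 it was at 119.1, 97.5, 105.6 and 95.9 CPM. Replicate 5 lay within the control range and the others below it. The log2 fold change was -0.29 ± 0.08 (edgeR adjusted p = 0.0449). Its adjusted p in edgeR was 0.0922 to 0.180 without control replicate 1, 2 or 3 or RGX-104 replicate 6, 7 or 8, each left out alone.

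Cenpf, a large protein of the outer kinetochore, was at 115.6 to 128.6 CPM in control and at 111.4, 112.2, 92.3 and 83.2 CPM in RGX-104 replicates 5 to 8. It and Nusap1 were the 2 of the 35 genes (5.71%) whose groups did not overlap with all of RGX-104 lower, beside 4.32% of all genes tested, and none did so in the other direction, beside 3.88%. Its log2 fold change was -0.27 ± 0.08 (edgeR adjusted p = 0.105).

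Ndc80, Nuf2 and Spc25 are subunits of a single complex that binds microtubules at the kinetochore, and their values differed. Ndc80 was at 46.4, 58.1, 56.7 and 56.8 CPM in control and at 48.5, 38.2, 39.2 and 43.3 CPM in RGX-104 replicates 5 to 8, a log2 fold change of -0.37 ± 0.10 (edgeR adjusted p = 0.0601). Nuf2 had a log2 fold change of 0.02 ± 0.14 and Spc25 of 0.02 ± 0.10. The difference between these subunits was not tested. Cenpa, the histone H3 variant that marks centromeres, was at 9.71 ± 1.78 and 9.10 ± 2.20 CPM.

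None of the 5 cyclin and Cdk1 genes passed the test. At an unadjusted p under 0.05 (edgeR), 2 were lower (Cdk1 and Cks2), 40% beside 7.52% of all genes. All 5 log2 fold changes were negative, beside 49.4% over all genes. Cdk1, the kinase that starts mitosis, was at 171.4, 212.8, 187.9 and 207.0 CPM in control and at 172.2, 186.9, 176.8 and 166.0 CPM in RGX-104 replicates 5 to 8. Only replicate 8 lay below the control range, and the log2 fold change was -0.15 ± 0.07 (edgeR adjusted p = 0.319). Its partner Cks2 was at 33.8 to 35.5 CPM in control and at 31.2, 33.9, 27.0 and 21.7 CPM in RGX-104 replicates 5 to 8 (-0.28 ± 0.13). The cyclins gave -0.12 ± 0.12 for Ccnb1, -0.37 ± 0.29 for Ccnb2, the gene with the fewest counts, and -0.04 ± 0.08 for Ccna2.

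No kinase, checkpoint or anaphase gene passed the test. Tpx2, the activator of Aurora A at the spindle, was at 89.1, 96.4, 107.0 and 98.9 CPM in control replicates 1 to 4 and at 95.0, 90.7, 72.0 and 67.2 CPM in RGX-104 replicates 5 to 8. Replicates 7 and 8 were below and the others within the control range, with a log2 fold change of -0.27 ± 0.10 (edgeR adjusted p = 0.179). The kinases themselves had values of -0.04 ± 0.15 for Aurka and -0.13 ± 0.13 for Plk1. Plk1 was at 28.2 CPM in RGX-104 replicate 8 and at 39.0 to 44.3 CPM in replicates 5 to 7.

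In the chromosomal passenger complex, which corrects faulty attachments, the scaffold Incenp was at 139.7, 149.7, 145.8 and 143.4 CPM in control. In RGX-104 replicates 5 to 8 it was at 149.7, 122.6, 113.5 and 114.4 CPM. Replicate 5 was level with the highest control and the others lay below all controls, with a log2 fold change of -0.21 ± 0.08 (edgeR adjusted p = 0.191). The kinase Aurkb (0.15 ± 0.15) and survivin, Birc5 (-0.02 ± 0.06), did not pass either.

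Of the spindle checkpoint kinases, Ttk was at 81.7, 62.9, 76.5 and 72.5 CPM in control and at 74.7, 60.0, 70.6 and 49.6 CPM in RGX-104 replicates 5 to 8 (log2 fold change -0.20 ± 0.11). Replicates 6 and 8 lay below the control range. Bub1b gave -0.11 ± 0.09 and Bub1 -0.06 ± 0.15. Ube2c, the ubiquitin-conjugating enzyme of the anaphase-promoting complex, was at 45.6, 45.8, 50.3 and 55.2 CPM in control and at 43.9, 55.1, 40.5 and 46.2 CPM in RGX-104 replicates 5 to 8. These overlapped (-0.08 ± 0.11), as did those of its activator Cdc20 (-0.07 ± 0.10).

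None of 6 midzone and cytokinesis genes passed the test. Kif20b, a kinesin of late cytokinesis, had the smallest p of them, at 150.4, 135.8, 156.5 and 137.1 CPM in control and 149.97, 136.5, 119.2 and 120.9 CPM in RGX-104 replicates 5 to 8 (-0.14 ± 0.07, edgeR adjusted p = 0.421). Replicates 7 and 8 were below the control range. The chromosome-bound kinesin Kif4 gave -0.21 ± 0.12 and the midzone bundler Prc1 -0.14 ± 0.10. Kif23, Kif20a and the contractile ring protein anillin (Anln) ran from -0.04 to 0.01. Exons of Kif4, Prc1, Kif20a, Ccna2, Plk1, Tacc3 and Ube2c overlap those of a gene on the opposite strand by at least 100 bp.

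Across the 35 genes the RGX-104 libraries differed from one another. Of the 35, 9 lay below the control range in replicate 5, 12 in replicate 6, 17 in replicate 7 and 24 in replicate 8 (25.7, 34.3, 48.6 and 68.6%). Over all genes tested these shares were 22.4, 22.7, 23.8 and 23.1%. In replicate 8 34 of the 35 lay below their control mean, with Aurkb the exception, from -0.76 for Mki67 to 0.02 for Aurkb on the log2 scale (CPM + 0.5). In replicates 5, 6 and 7 it was 19, 24 and 30 of the 35, and in control replicates 1 to 4 it was 29, 15, 14 and 17, so control replicate 1 came close to RGX-104 replicate 7 by this count. Over all genes 50.5 to 52.0% lay below their control mean in each library.

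Of the 35 genes, 22 (62.9%) had their lowest RGX-104 value in replicate 8 and 9 (25.7%) in replicate 7, beside 24.1 and 25.3% of all genes. Replicates 5 and 6 held the lowest value of 2 genes each. Control libraries were not even either, since 19 of the 35 genes (54.3%) had their lowest control value in replicate 1, beside 25.2% of all genes. The SD of log2(CPM + 0.5) was larger in RGX-104 than in control for 25 of the 35 genes (71.4%), beside 50.4% of all genes. Replicate numbers give no order in time or dose, so a trend over them was not tested.

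**Figure D3:**
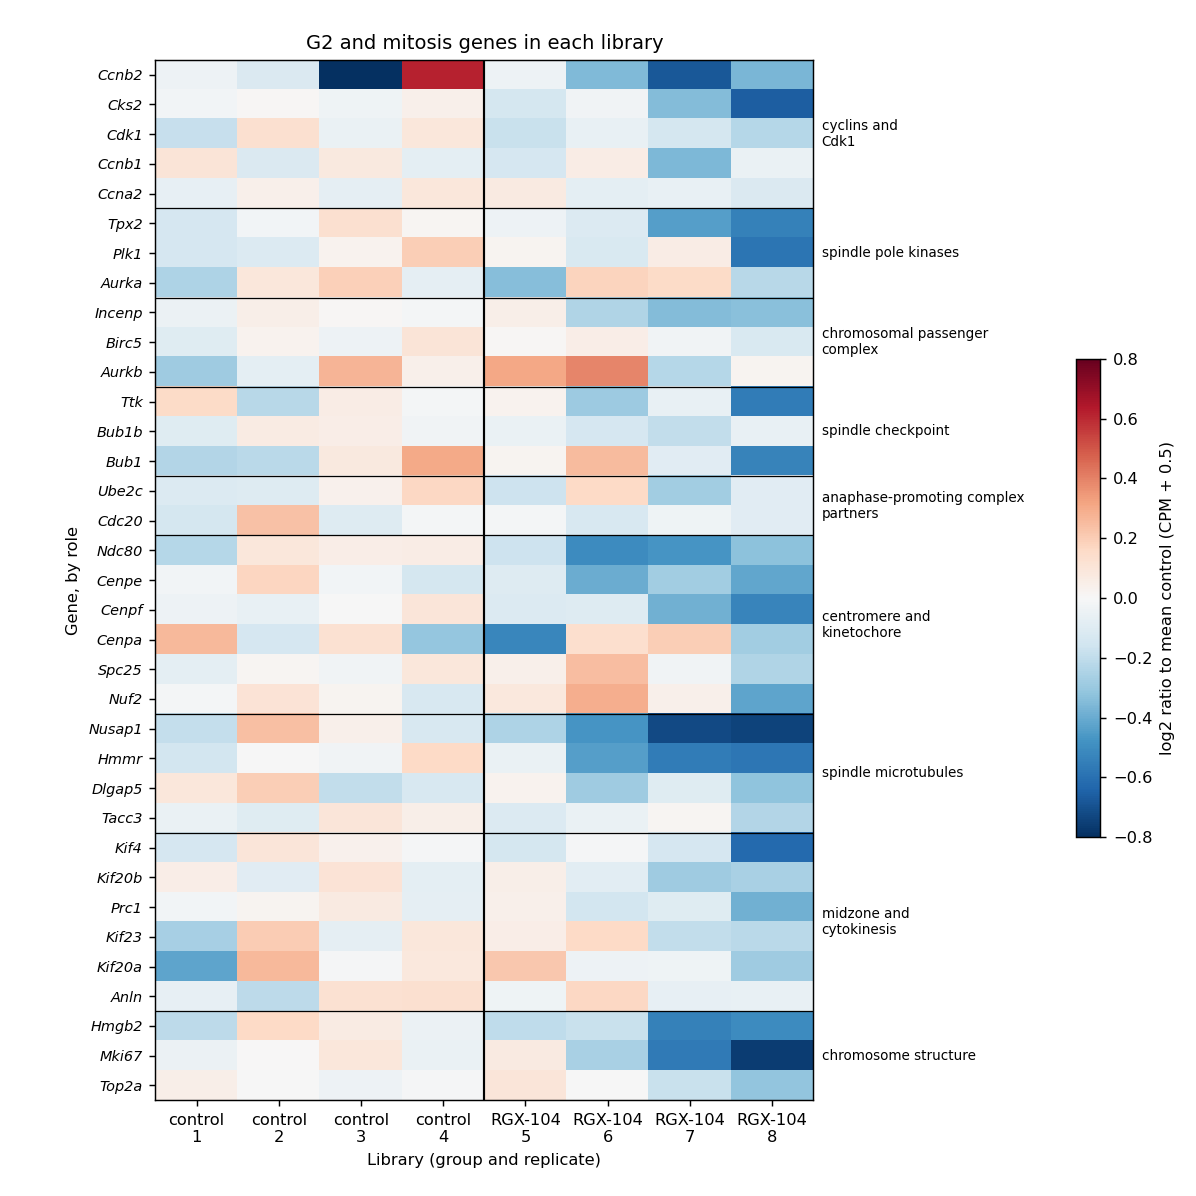
Log2 ratio of each gene (rows, by role) in each library (columns) to its mean over the 4 control libraries, on CPM + 0.5, with blue for lower and red for higher. The columns of RGX-104 replicates 7 and 8 are mostly blue, with 30 and 34 of the 35 genes below their control mean, and control replicate 1 has 29 below it in paler shades.

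Other measures also varied between the RGX-104 libraries. In RGX-104 replicates 5 to 8 the share of counts in ribosomal protein genes was 9.95, 10.15, 10.62 and 10.92%, and that of mitochondrial RNA was 4.84, 4.52, 4.05 and 3.99%. In control these shares ran from 10.36 to 10.60% and from 4.59 to 4.95%. For ribosomal protein genes replicates 5 and 6 lay below the control range and 7 and 8 above it, replicate 7 only just. For mitochondrial RNA replicates 6, 7 and 8 lay below it. The share of counts in the 35 genes was 0.358, 0.347, 0.306 and 0.283% in RGX-104 replicates 5 to 8, and 0.346 to 0.372% in control. The part of these measures, or of the depth of replicate 8, in the values of the 35 genes was not tested.

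Other genes of mitosis were read from a list of 136 entries outside the 35, of which 128 were tested. Of these, 1 was lower, Kif2c, and none was higher (0.781% lower, beside 1.78% of all genes). By unadjusted p under 0.05, 17 were lower and 3 higher (13.3% lower, beside 7.52%). DESeq2 called 3 of the 128 lower, beside 292 of all 12162 genes. The median log2 fold change was -0.09 with 91 of 128 negative (71.1%, beside 49.4% of all genes). Kif2c, a kinesin that dismantles microtubule ends, was at 19.96, 20.6, 21.7 and 23.6 CPM in control and at 15.9, 15.5, 11.2 and 14.3 CPM in RGX-104 replicates 5 to 8. The groups did not overlap. This held for 7 of the 128 genes with RGX-104 lower (5.47%, beside 4.32% of all genes). With RGX-104 higher it held for 3, beside 3.88% of all genes. The log2 fold change of Kif2c was -0.59 ± 0.15 (edgeR adjusted p = 0.0296). Its adjusted p in edgeR was 0.0506 to 0.106 without control replicate 2, 3 or 4 or RGX-104 replicate 6, 7 or 8, each left out alone.

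By role, 22 of 26 other centromere and kinetochore genes, 21 of 26 other spindle and cytokinesis genes and 18 of 23 condensin and cohesin genes had a negative log2 fold change. Of 13 mitotic entry genes it was 10, of 7 other mitotic kinases 4, and of 21 other checkpoint and anaphase-promoting complex genes 11. Over all genes tested 49.4% were negative. Of the 12 tested transcription factors and cofactors of mitotic genes, among them Foxm1, Mybl2 and the MuvB subunits, 5 were negative, with a median of 0.03, and 0 had an unadjusted p under 0.05.

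Genes of S phase, in which DNA is copied, had a median near 0 but shared part of the spread between libraries. Of 34 tested, 0 passed the test with edgeR, DESeq2 or limma-voom. At an unadjusted p under 0.05 (edgeR), 5 were lower (14.7%, beside 7.52% of all genes) and 2 higher. The log2 fold change was negative for 13 (38.2%, beside 49.4% of all genes), and the median was 0.02. Of the 34, 5, 7, 9 and 13 lay below the control range in RGX-104 replicates 5 to 8. Over all genes these shares were 22.4, 22.7, 23.8 and 23.1%. The lowest RGX-104 value was in replicate 8 for 15 of the 34, beside 24.1% of all genes. The SD was larger in RGX-104 for 67.6%, beside 50.4% of all genes. Above the control range lay 12, 13, 11 and 7 of the 34, beside 22.3, 22.3, 23.4 and 23.5% of all genes. The median log2 ratio of the S phase genes to control was 0.04, 0.02, 0.01 and -0.01 in RGX-104 replicates 5 to 8. For the 35 genes of G2 and mitosis it was -0.03, -0.08, -0.18 and -0.32, and for the other mitotic genes -0.02, -0.04, -0.12 and -0.15. Over all genes tested it stayed between -0.0094 and -0.0019 in every library. The difference between the lists was not tested.

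**Figure D4:**
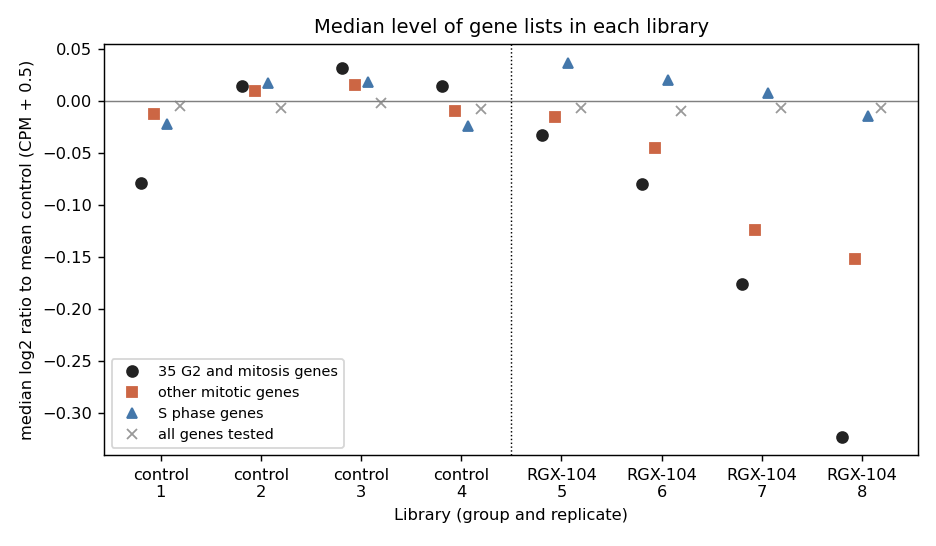
Median log2 ratio to the control mean (y axis, on CPM + 0.5) in each library (x axis) for the 35 genes of G2 and mitosis, other mitotic genes, S phase genes and all genes tested. The 35 genes reach -0.18 and -0.32 in RGX-104 replicates 7 and 8, where S phase genes are at 0.01 and -0.01.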

How the data were processed

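Libraries of 8 samples of sorted OT-I CD8+ T cells, 4 per group, were prepared with a Lexogen 3′ kit on total RNA, per the labels' protocols. Reads of such a kit lie near transcript ends. The table the authors deposited holds raw whole-number counts of reads. The submitters' processing notes name STAR 2.7.8a, DESeq2 1.4, R 4.1.0 and build GRCm38. How reads were counted, with or without strand, and whether molecular identifiers were used is not given in the sources used here. If they were not, PCR copies are not independent molecules.

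The whole table was fitted in R 4.3.3 with edgeR 4.0.16. Steps were filterByExpr by group, TMM scaling and a two-sided quasi-likelihood test of group, with Benjamini-Hochberg adjustment over 12162 genes and a threshold of 0.05. The biological coefficient of variation was 14.5%. The SE is the log2 fold change divided by the square root of F. DESeq2 1.42.0, limma-voom (limma 3.58.1), other scalings, other filters and leaving out each library were alternatives. The test was checked on simulated data. All columns belonged to this series (0 others). Members and lists were chosen with earlier results of these data known. Values in every library are given for genes called, Mki67, Top2a and the gene with the smallest p in each role, and other genes given by library were chosen after their values were seen (Hmmr, Cenpf, Ndc80, Cks2). Older symbols in the lists were matched through RefSeq synonyms.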

Additional observations from a re-analysis of the deposited data

Results flagged for a closer look

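Of 70 groups of 4 libraries (35 genes in 2 groups), 2 held a library whose gap to its nearest neighbour was a larger part of the group's range than Dixon's limit allows, which chance passes in about 1 group in 20. Ndc80 was at 46.4 CPM in control replicate 1 and at 56.7 to 58.1 CPM in the other controls. Anln was at 20.2 CPM in RGX-104 replicate 6 and at 17.2 to 17.6 CPM in the other RGX-104 libraries.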

How the results depend on the processing

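No paired analysis was run because the labels do not say whether any control and RGX-104 libraries belong together. Leaving out each library in turn, edgeR called 0 to 7 of the 35 genes and 0 to 1 S phase gene lower. It called 0 to 2 other mitotic genes lower and 0 to 1 higher. Of all genes it called 144 to 211 lower, beside 216 with all libraries, and 57 to 93 higher, beside 108. The median log2 fold change of the 35 genes ran from -0.17 to -0.09. Changing the scaling or the filter gave 3 or 4 calls, always with Nusap1, Hmgb2 and Cenpe among them. Of all genes these settings called 204 lower (no filter, 20321 tested) to 237 lower (mean of at least 20 counts, 10975 tested). DESeq2 called Nusap1 and Cenpe but not Hmgb2 (adjusted p = 0.0816). It called 3 other mitotic genes lower, and of all genes 292 lower and 192 higher. In the 100 bases before the start, 10 promoters held a CHR match in place of 25. Groups of 4 libraries and the counting depth limit what could be detected for genes with few counts such as Ccnb2 and Cenpa.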
